A study of Caenorhabditis elegans with 9 samples.

Results

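The transcriptome of whole wild-type *C. elegans* larvae was described at the late L2 stage, the second of the larval stages that worms pass through on the way to adulthood. It comprised the 3 libraries of strain N2 among the 9 libraries of the series, which also held 3 libraries each of the BMP pathway mutants *sma-3(wk30)* and *sma-9(ok1628)*, not used here. N2 is the laboratory wild-type strain and carries no introduced allele. Embryos were isolated from gravid adults with hypochlorite so that the animals developed in step, and the larvae were kept on NGM plates at 20 °C under 21% oxygen. The labels name 3 biological replicates of whole animals, and polyA RNA was sequenced from both ends. Replicates 1, 2 and 3 carry the library numbers 6, 7 and 9. Levels are given in counts per 1000000 reads (CPM) after the normalization of the study's authors, and all comparisons are descriptions of these 3 libraries, without a test.

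A late L2 larva holds differentiated intestine, muscle, epidermis, pharynx and nervous system, whereas the gonad is still small and makes no gametes. The worm replaces its collagen cuticle at every moult, so that cuticle and moulting genes rise and fall in each larval stage. A separate set of heterochronic genes, whose order of action fixes which stage-specific cell divisions take place, distinguishes one larval stage from the next. RNA from a whole animal averages all tissues, and in such samples fewer cells of a type and less RNA per cell cannot be told apart.

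The libraries held 72124205, 73484382 and 69602298 reads on genes in replicates 1, 2 and 3, and the floor used here, 3 reads in a library, lay at 0.0428 to 0.0449 CPM. Among recovered numbers below 200, 59.7% to 60.3% were even, so that counted reads need not be independent of one another, and this floor covers counting error only. Replicate 3 stood apart from the others. The median difference between 2 replicates over the 12242 genes with at least 1 CPM in every library was 0.11 on the log2(CPM + 1) scale for replicates 1 and 2, but 0.21 for replicates 1 and 3 and 0.21 for replicates 2 and 3. Several summary values are therefore also given without it.

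Of 46875 genes listed, 16348 had at least 3 reads in each library, and 15312 of these were protein-coding, which is 76.9% of the 19920 protein-coding genes listed. Without replicate 3 the number was 16820. In all 3 libraries 12242 genes reached 1 CPM, including 60.2% of the protein-coding genes, and 1634 genes reached 100 CPM. No read was counted for 23352 genes, of which 1442 were protein-coding. The share of protein-coding genes that were detected was lowest on chromosome V, at 67.1%, and highest on chromosome III, at 87.8%. The median level of detected protein-coding genes was likewise low on chromosome V, with 4.98 CPM per kb of exon on chromosome V and 12.6 CPM per kb on chromosome III. Chromosome I was highest with 12.7 CPM per kb, and the X chromosome lay at 7.52 CPM per kb.

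The most abundant transcripts belonged to the machinery of protein synthesis. Ranked by CPM per kb of exon, 23 of the 30 highest genes encoded cytosolic ribosomal proteins, and 69 of the 100 highest protein-coding genes did. These numbers rest on the gene names *rpl*, *rps* and *rla*, so that ribosomal protein genes named otherwise are not among them. The first place was taken by *eef-1A.1* (WBGene00001168; chromosome III, 6970026 to 6971712 in WBcel235, minus strand), which encodes the elongation factor that brings aminoacyl-tRNA to the ribosome. Its level was 8053, 8076 and 6656 CPM per kb in replicates 1, 2 and 3, a mean of 7595 ± 813 (SD, n = 3). Replicates 1 and 2 were nearly equal and replicate 3 was the lowest. The highest ribosomal protein gene was *rpl-13*, a component of the large subunit, with 5414, 5420 and 3901 CPM per kb. It was followed by the small-subunit genes *rps-25* (5471, 5081 and 4069 CPM per kb) and *rps-23* (5288, 5189 and 4030 CPM per kb). For all of these, replicate 3 was again the lowest, as for 29 of the 30 genes, whereas replicate 3 was lowest for 41.8% of all genes at 1 CPM.

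**Figure D1:**
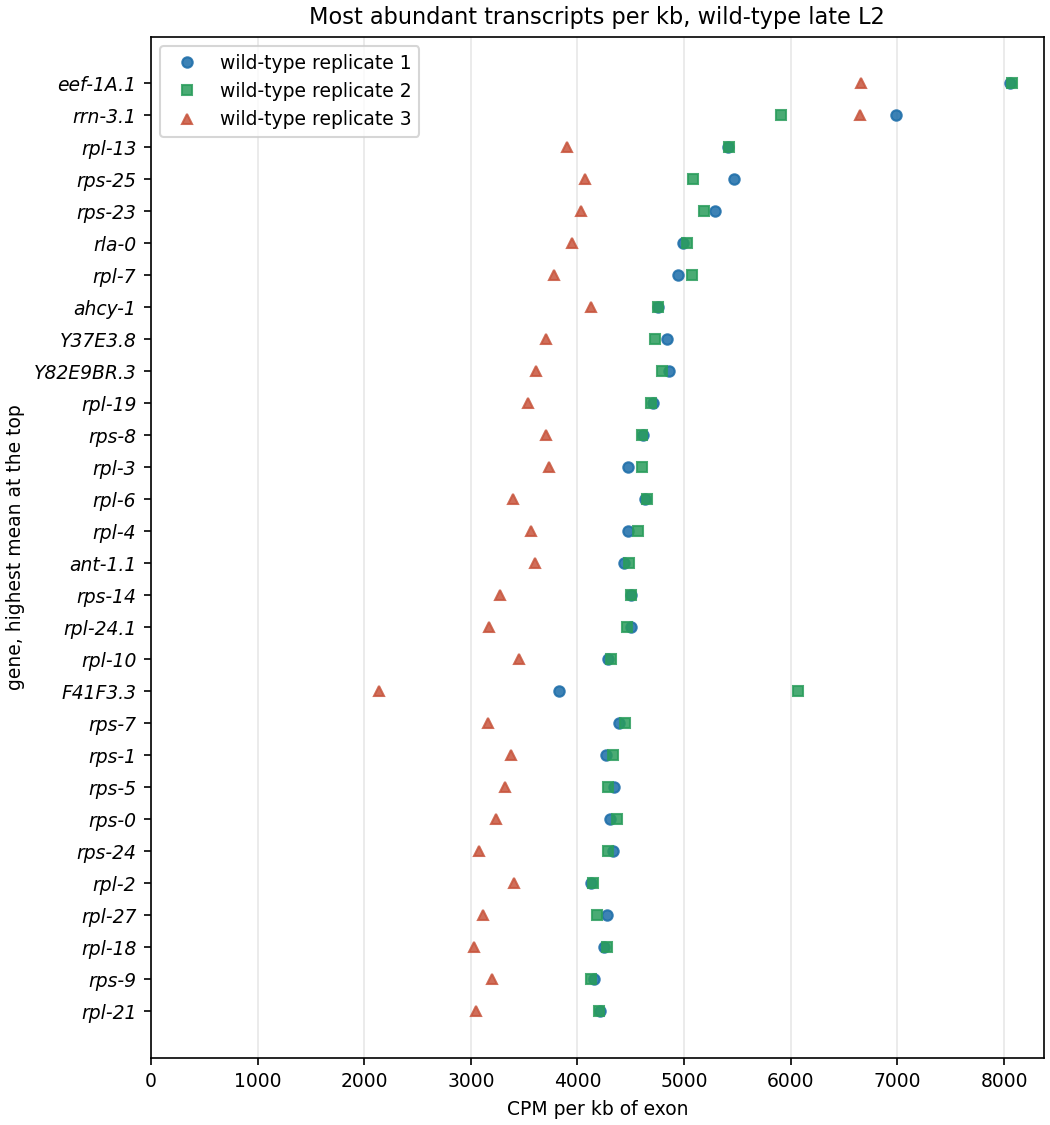
Levels of the 30 genes with the highest mean CPM per kb of exon, with 1 point for each wild-type replicate on a linear axis from 0 and the genes in order of their mean. *eef-1A.1* lies at 6656 to 8076 CPM per kb, replicate 3 (triangles) is the lowest for 29 of the 30 genes, and *F41F3.3* is the most widely spread.

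The other protein-coding genes of the 30 carry other names. *ahcy-1*, which encodes the S-adenosylhomocysteine hydrolase of the methionine cycle, had 4757, 4754 and 4128 CPM per kb. *ant-1.1*, a mitochondrial ADP/ATP carrier, had 4435, 4484 and 3603 CPM per kb, and *Y82E9BR.3*, the proteolipid subunit of the mitochondrial ATP synthase, had 4861, 4794 and 3607 CPM per kb. Replicate 3 was the lowest for these genes too. *Y37E3.8*, a relative of ribosomal protein L27a by sequence, had a mean of 4423 CPM per kb. *F41F3.3* (WBGene00018297; chromosome V, 4647769 to 4648239, minus strand) differed from the rest in its spread, with 3829, 6070 and 2143 CPM per kb, so that replicate 2 was highest and replicate 3 lowest. The SD of its log2(CPM + 1) values was 0.75, against a median of 0.15 over the genes at 1 CPM.

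Ranked by CPM without regard to length, 15 of the 30 genes were the same, and long transcripts entered the list. *eef-2*, the factor that moves the ribosome along the mRNA, was measured at 8009, 8192 and 7848 CPM, a spread of only 0.03 in log2(CPM + 1) between replicates. *unc-54*, the major myosin heavy chain of body wall muscle (WBGene00006789; chromosome I, 14855901 to 14863482, minus strand), had 6004, 5478 and 5609 CPM. Both genes varied less than the ribosomal protein genes named above. *asp-1*, an intestinal aspartyl protease, had 4491, 3961 and 3465 CPM, and the constitutive chaperone gene *hsp-1* had 4046, 4119 and 3418 CPM. *pdi-2*, a protein disulfide isomerase of the endoplasmic reticulum that also serves the enzyme that hydroxylates collagen, had 3674, 3590 and 3896 CPM. Of the 20 highest genes by CPM, *pdi-2* and the second elongation factor gene *eef-1A.2* (3369, 3425 and 3626 CPM) were highest in replicate 3. *pab-1*, the polyA-binding protein gene, had 3616, 3624 and 3511 CPM.

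The 81 ribosomal protein genes together held 14.9%, 14.8% and 12.3% of all CPM in replicates 1, 2 and 3. The large-subunit family summed to 89449, 89348 and 67519 CPM and the small-subunit family to 63337, 62939 and 48391 CPM. All 47 large-subunit genes and all 31 small-subunit genes were detected. Of the 79 ribosomal protein genes at 1 CPM, 78 were lowest in replicate 3, beside 41.8% of all genes at 1 CPM. The 100 most abundant genes held 28.5%, 28.7% and 25.8% of all CPM (mean 27.7% ± 1.62, SD, n = 3), and 28.7% without replicate 3.

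Protein-coding genes took 97.0%, 97.4% and 96.9% of all CPM. Ribosomal RNA took 2.39%, 2.01% and 2.47%, nearly all of it from *rrn-3.1* (WBGene00004622; chromosome I, 15064838 to 15068346, plus strand), the 26S rRNA, which persisted through the selection of polyA RNA at 24509, 20728 and 23347 CPM. The rRNA genes are repeated in near-identical copies, so that the division of reads among them is uncertain. Replicate 2 was lowest here, unlike for the ribosomal protein genes. Among long noncoding RNAs, *lep-5*, which acts in the timing of male tail development, was the most abundant with 386, 426 and 252 CPM. Small RNAs were nearly absent, as such a library would not be made to hold them, with 6 of 261 microRNA genes and 39 of 15363 piRNA genes detected.

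Tissue markers were found for every differentiated tissue examined, at levels that differed widely between lists. Some lists hold mainly structural genes and others more transcription factor genes, so that their medians do not rank the tissues. Body wall muscle, which moves the animal, had the highest median, 885 CPM per kb over 10 genes. The epidermis list had 134 and the intestine list 113 CPM per kb. All 10 muscle genes were above 1 CPM in every library. The troponin C gene *pat-10* had 1966, 1761 and 1402 CPM per kb, the tropomyosin gene *lev-11* a mean of 1100 CPM per kb and the troponin T gene *mup-2* a mean of 1067 CPM per kb. The thick filament genes *unc-54* and *unc-15*, which encodes paramyosin, had means of 918 and 852 CPM per kb. The giant proteins of the sarcomere were lower per kb, with *unc-22* (twitchin) at 23.3 and *unc-89* at 14.8 CPM per kb, and the muscle transcription factor gene *hlh-1* lay at 10.2 CPM per kb. The 9 other genes of the list were all above *hlh-1* per kb. Without replicate 3 the median of the list was 894 CPM per kb.

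The intestine, the worm's digestive and storage organ, had 12 of its 13 listed genes at 1 CPM in every library. *asp-1* was its highest gene per kb, with 3771, 3326 and 2910 CPM per kb, and *act-5*, the actin of the intestinal microvilli, followed with a mean of 1284 CPM per kb. *elt-2*, the GATA factor that maintains intestinal identity, was steady with 38.03, 39.3 and 40.3 CPM, which is 25.2 CPM per kb, whereas its partner *elt-7* had 11.2, 15.1 and 7.73 CPM. The peptide transporter gene *pept-1* had 397, 391 and 478 CPM. *mtl-1*, a metallothionein gene that responds to metals, was the member under 1 CPM, with 0.314, 0.309 and 0.842 CPM, while *mtl-2* had 15.5, 12.8 and 31.3 CPM and was highest in replicate 3.

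The epidermis (hypodermis) secretes the cuticle, and all 10 of its genes were at 1 CPM. Its collagen genes were the highest of the list, led by *sqt-3* with 2042, 2979 and 2341 CPM, *sqt-1* with 1138, 1625 and 845 CPM and *rol-6* with 953, 1485 and 776 CPM. For these collagens replicate 2 was the highest. The furrow collagen genes *dpy-7* (451, 412 and 499 CPM) and *dpy-10* (347, 310 and 437 CPM) showed another order and were highest in replicate 3. The epidermal transcription factor genes *lin-26* (64.8, 83.1 and 103.6 CPM), *elt-1* (14.5, 14.9 and 24.2 CPM) and *nhr-25* (38.1, 48.3 and 52.6 CPM) were also highest there. The seam cells, a row of epidermal stem-like cells on each side, were represented by 8 matched genes, all at 1 CPM, with a median of 19.6 CPM per kb, and 15.3 CPM per kb without replicate 3. The GATA factor gene *egl-18* had 28.5, 26.7 and 41.3 CPM, the Engrailed relative *ceh-16* had 2.35, 2.136 and 4.41 CPM, and the hedgehog-related gene *wrt-2* had 228, 252 and 282 CPM.

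The pharynx, the muscular feeding organ, was measured through its own myosins *myo-1* (481, 364 and 555 CPM) and *myo-2* (556, 439 and 611 CPM), and replicate 2 was lowest for both. Its organ identity factor *pha-4* was steady at 37.5, 39.6 and 38.5 CPM. Genes of the pharyngeal gland cells were mixed. *phat-4* had 172, 203 and 107 CPM and *phat-2* 30.8, 50.9 and 21.8 CPM, highest in replicate 2 and lowest in replicate 3. Of the 6 gland genes, 3 were lowest in replicate 3 and 2 were highest there.

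Genes of the nervous system were measured both as a whole and for single cell classes. The 11 genes used by all neurons had a median of 30.99 CPM per kb, and 27.5 CPM per kb without replicate 3, led by *snb-1*, the synaptobrevin of synaptic vesicles, with 168, 171 and 174 CPM per kb. The neuropeptide processing genes *egl-3* and *egl-21* had means of 111 and 143 CPM per kb. Of these 11 genes, 10 were highest in replicate 3, where 38.6% of all genes at 1 CPM were highest. *egl-3*, for instance, was measured at 261, 282 and 313 CPM and *rab-3* at 50.5, 54.5 and 70.3 CPM. Genes of single transmitter classes were lower, with a median of 5.78 CPM per kb over 10 genes. *unc-25*, which makes GABA, had 91.3, 100 and 114 CPM, and *eat-4*, the glutamate transporter of vesicles, had 10.8, 11.7 and 15.7 CPM. *tph-1*, which makes serotonin in a few neurons, had 1.78, 1.66 and 1.78 CPM, and *tbh-1*, which makes octopamine, 1.36, 1.69 and 1.61 CPM. Although touch receptor neurons are few, the genes listed for them gave clear values. The tubulin genes *mec-7* (92.3, 106 and 100 CPM) and *mec-12* (154, 167 and 167 CPM) and the acetyltransferase gene *mec-17* (49.0, 53.2 and 48.5 CPM) were well above the channel gene *mec-4* (5.53, 5.61 and 6.58 CPM) on the CPM scale. RNA from whole animals does not show in which cells these genes were transcribed. Coelomocytes, scavenger cells of the body cavity, gave 12.3, 12.9 and 12.1 CPM of *unc-122* and the smallest spread of any list with at least 3 genes at 1 CPM, a median SD of 0.06 in log2(CPM + 1). Of 5 glial genes 4 were at 1 CPM, with *hlh-17* under it at 0.269, 0.353 and 0.428 CPM.

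**Figure D2:**
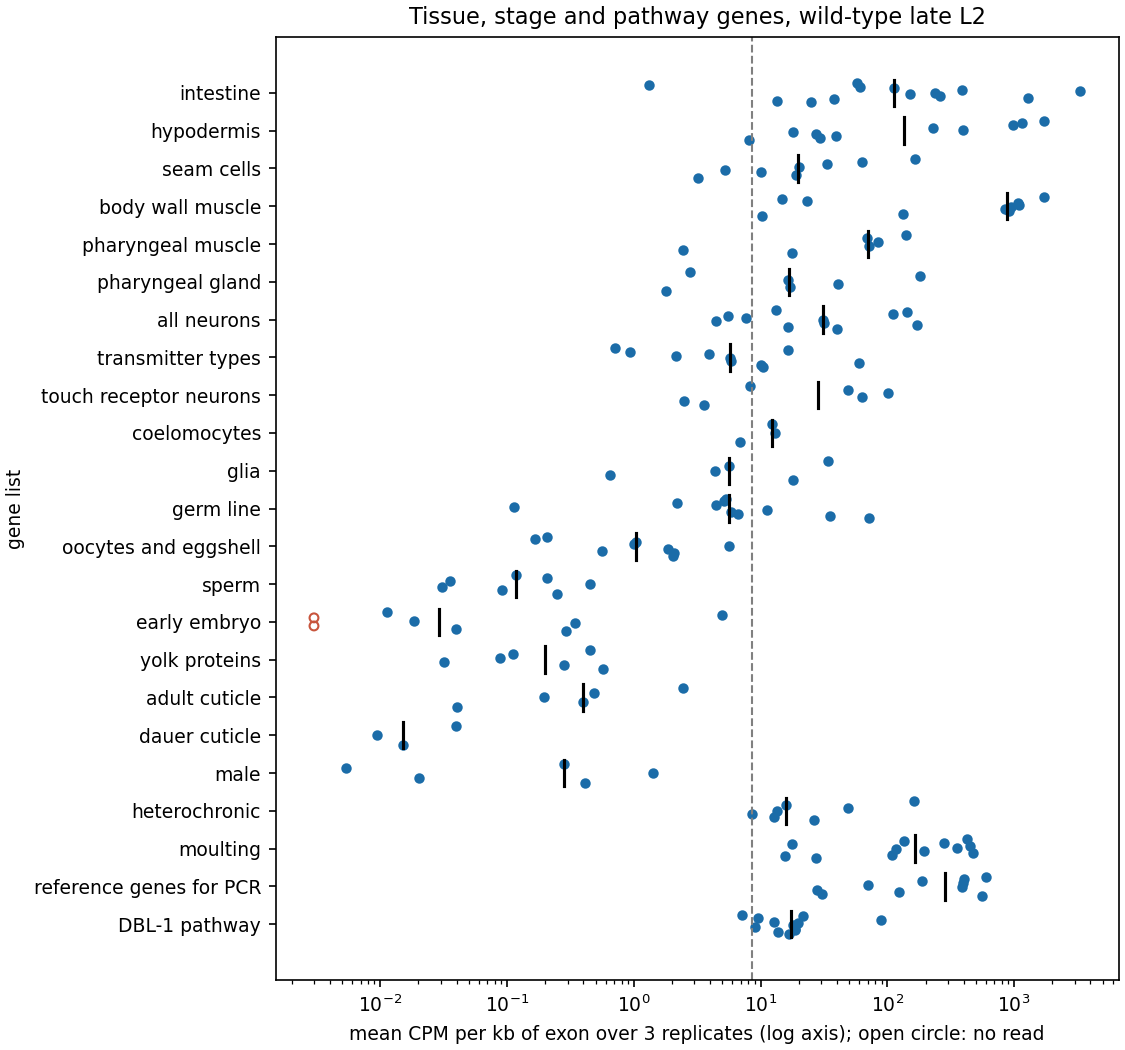
Mean CPM per kb of exon over the 3 wild-type replicates for each gene of the tissue, stage and pathway lists, on a log axis, with a black bar at the median of each list and a dashed line at the median of all detected protein-coding genes, 8.60 CPM per kb. Open circles are 2 genes of the early embryo without a read. Body wall muscle has the highest median (885 CPM per kb), and the sperm, early embryo, yolk, adult cuticle, dauer cuticle and male lists lie mostly to the left of the dashed line.

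Germ line genes had a median of 5.60 CPM per kb. *glh-1*, which encodes a helicase of the germ granules, was its highest gene with 243, 195 and 160 CPM, followed by the germ granule gene *pgl-1* with 101, 88.8 and 72.2 CPM. Replicate 1 was highest and replicate 3 lowest for both. The Notch receptor gene *glp-1*, which keeps germ cells dividing, had 27.7, 23.5 and 25.3 CPM, and *gld-1*, which acts in the entry into meiosis, 26.7, 23.3 and 25.3 CPM. Genes of the meiotic chromosome axis and synapsis were low, with *htp-3* at 11.6, 10.6 and 9.12 CPM, *him-3* at 7.54, 5.60 and 4.82 CPM and *syp-1* at 9.72, 6.22 and 4.04 CPM. Of the 9 germ line genes at 1 CPM, 7 were lowest in replicate 3 and 0 highest, beside 41.8% and 38.6% of all genes at 1 CPM. With every library scaled to the same total, 6 were lowest and 2 highest there. *nos-2* was at 0.18, 0.147 and 0.0999 CPM.

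Markers of gametes, embryos and adults marked the other end of the scale. The 9 oocyte and eggshell genes had a median of 1.04 CPM per kb. The highest was *cbd-1*, a chitin-binding protein gene of the eggshell, with 26.4, 21.5 and 22.9 CPM, while the oocyte maturation genes *oma-1* and *oma-2* had 2.88 to 4.52 and 3.10 to 3.34 CPM. None of the 7 matched sperm genes reached 1 CPM in every library, and their sum was 2.36, 2.46 and 1.64 CPM. Yolk protein genes, which the adult intestine transcribes at very high levels, summed to 7.61, 11.9 and 3.72 CPM over all 6 genes. The highest, *vit-1*, had 2.83, 3.96 and 1.94 CPM. Replicate 2 was highest and replicate 3 lowest for the sum.

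The adult cuticle collagen *col-19* (WBGene00000608; chromosome X, 421707 to 422691, plus strand) was at 0.314, 0.619 and 0.185 CPM, above the floor of 3 reads in each library but under 1 CPM in all of them. *bli-1* and *bli-2*, which form struts of the adult cuticle, had 1.94, 1.66 and 0.756 CPM and 4.20, 2.31 and 0.713 CPM. The 3 collagen and cuticlin genes of the dauer cuticle, the cuticle of the larval resting stage, summed to 0.0598, 0.177 and 0.0143 CPM, and *col-2* and *col-40* had under 3 reads in every library. Early embryonic genes were near the floor, with *end-3* at 2 to 3 reads per library and no read for *med-1* or *tbx-38*. *pal-1*, which is also used after embryogenesis, was the exception with 7.45, 6.92 and 7.86 CPM. Among genes used in males, *mab-3*, which encodes a DM domain factor, was the one at 1 CPM, with 3.05, 2.78 and 2.13 CPM. *xol-1*, the early switch of sex determination, had 10 reads in replicate 1 and 0 in the others. The levels of larval and other markers overlapped, since 7 of 9 oocyte and eggshell genes reached 1 CPM in every library, whereas no gene of the sperm or dauer cuticle lists did.

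Heterochronic genes were all expressed and differed between replicates. *lin-14*, which encodes the transcription factor of the earliest larval fates (WBGene00003003; chromosome X, 11465560 to 11485871, plus strand), stood at 80.6, 83.7 and 125 CPM. *lin-28*, an RNA-binding protein gene of L2 fates, had 15.2, 15.7 and 25.2 CPM, and *hbl-1*, the Hunchback relative of L2 fates, had 27.7, 23.2 and 64.2 CPM. Replicates 1 and 2 were close for all of these and replicate 3 was the highest. *lin-41*, which acts later, in the passage to adult fates, had 172, 195 and 340 CPM, and *lin-42*, the Period relative whose transcript oscillates with the moults, had 548, 638 and 776 CPM. *lin-46*, which acts downstream of *lin-28*, went the other way with 17.5, 24.3 and 13.3 CPM. *lin-29*, which directs the switch to the adult epidermis, had 41.6, 24.3 and 43.1 CPM. In all, 6 of the 7 matched genes were highest in replicate 3, beside 38.6% of all genes at 1 CPM. Their median difference of replicate 3 from the mean of the others was 0.60 on the log2(CPM + 1) scale. The microRNA genes *lin-4* and *let-7* of the same pathway are not analysed here.

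All 12 moulting genes were at 1 CPM, with a median of 165 CPM per kb. The apical matrix genes *noah-1* (1135, 1047 and 1867 CPM) and *noah-2* (979, 919 and 1527 CPM) and the protease inhibitor gene *mlt-11* (983, 856 and 1593 CPM) were highest in replicate 3. So was *nhr-23*, the nuclear receptor gene that starts each moulting cycle, with 68.0, 48.3 and 89.5 CPM. By contrast, *mlt-10* (395, 579 and 393 CPM), *mlt-8* (470, 622 and 470 CPM) and the metalloprotease gene *nas-36* (35.1, 49.2 and 22.2 CPM) were highest in replicate 2. Of the 12 genes, 8 were highest in replicate 3, beside 38.6% of all genes at 1 CPM.

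The DBL-1 pathway, the BMP signal that sets body size and that the series was made to study, was transcribed in full. Its ligand gene *dbl-1* had 26.7, 30.8 and 29.5 CPM. The receptor genes *sma-6* and *daf-4* had 37.8, 37.4 and 44.6 CPM and 45.9, 47.6 and 78.8 CPM. The Smad genes *sma-2* (14.4, 16.2 and 15.9 CPM), *sma-3* (26.5, 21.4 and 22.4 CPM) and *sma-4* (36.5, 35.2 and 40.4 CPM) were all at 1 CPM. Their levels per kb were 9.10, 17.9 and 19.9 CPM per kb. *sma-9*, the Schnurri relative, had 12.8 CPM per kb. Extracellular modulators ranged from *drag-1*, a co-receptor gene, at 7.13 CPM per kb to *lon-1*, a secreted protein gene downstream of the pathway, at 88.5 CPM per kb. *lon-2*, the glypican that restrains the ligand, had 26.7, 23.7 and 28.2 CPM. All 12 genes were at 1 CPM in every library. Of these, 8 were highest and 1 lowest in replicate 3, beside 38.6% and 41.8% of all genes at 1 CPM. With every library scaled to the same total, 10 were highest and 0 lowest there. The median of the list was 17.4 CPM per kb, and 15.9 CPM per kb without replicate 3.

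Of genes used as references in RT-PCR, *cdc-42* was the steadiest with 168, 167 and 164 CPM, a coefficient of variation of 1.09%, and *pmp-3* had 76.1, 70.7 and 78.4 CPM (5.23%). *ama-1*, the large subunit of RNA polymerase II, was higher in replicate 3 with 163, 163 and 231 CPM (21.2%), and *act-1* was lower there with 798, 730 and 595 CPM. *act-1* has near-identical copies, among which reads may be divided.

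The share of silent genes differed between families. Under 3 reads in every library were counted for 13.2% of all protein-coding genes, and 11 of 38 families examined exceeded this share. Serpentine receptors, the chemoreceptors that single sensory neurons use to detect odours and other signals, were the largest family with 1309 genes. Of these, 523 (39.95%) had under 3 reads in every library and 272 had none, 370 were detected, and 21 reached 1 CPM in every library. The whole family summed to 305, 307 and 318 CPM, about the level of the single nuclear receptor gene *nhr-114*. The highest member, *srr-4*, held 20.0% of this sum with 63.5, 68.2 and 54.4 CPM, followed by *srw-85* with 29.1, 24.5 and 25.7 CPM and *srv-1* with 24.4, 23.9 and 27.02 CPM.

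The receptor subfamilies differed. Under 3 reads in every library were found for 25 of 39 *srj* genes (64.1%), 42 of 71 *srbc* genes (59.2%) and 63 of 109 *srw* genes (57.8%). At the other end stood *srm* with 0 of 6 genes, *srab* with 3 of 23 (13.0%), *srxa* with 3 of 17 (17.6%) and *sre* with 10 of 54 (18.5%). For all protein-coding genes this share was 13.2%. A single gene carried most of the reads of several subfamilies, with *srv-1* holding 84.5% of the CPM of the *srv* genes, *srw-85* 82.6% of *srw* and *srj-14* 73.8% of *srj*.

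Sperm protein genes were at or near the floor. None of the 31 major sperm protein (MSP) genes, which form the cytoskeleton of crawling sperm, reached 1 CPM, and their sum was 1.24, 2.61 and 0.67 CPM, that is 83, 177 and 47 reads. Of the 31 genes 9 (29.03%) had under 3 reads in every library, and 4 had at least 3 in each. Without replicate 2, which held the most of these reads, 20 of the 31 genes had under 3 reads in replicates 1 and 3. The highest, *msp-31*, had 0.284, 0.118 and 0.2 CPM. MSP genes are near-identical in sequence, and how reads that match several copies were counted is not given in the sources used here, so that this sum may be too low. Of 12 small sperm protein (*ssp*) genes 8 had under 3 reads in every library and 0 were detected. The nematode-specific peptide groups *nspa* and *nspd* had 8 of 10 and 3 of 10 genes under 3 reads and 0 at 1 CPM, whereas 14 of 18 *nspc* genes were at 1 CPM with a sum of 290, 299 and 233 CPM.

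**Figure D3:**
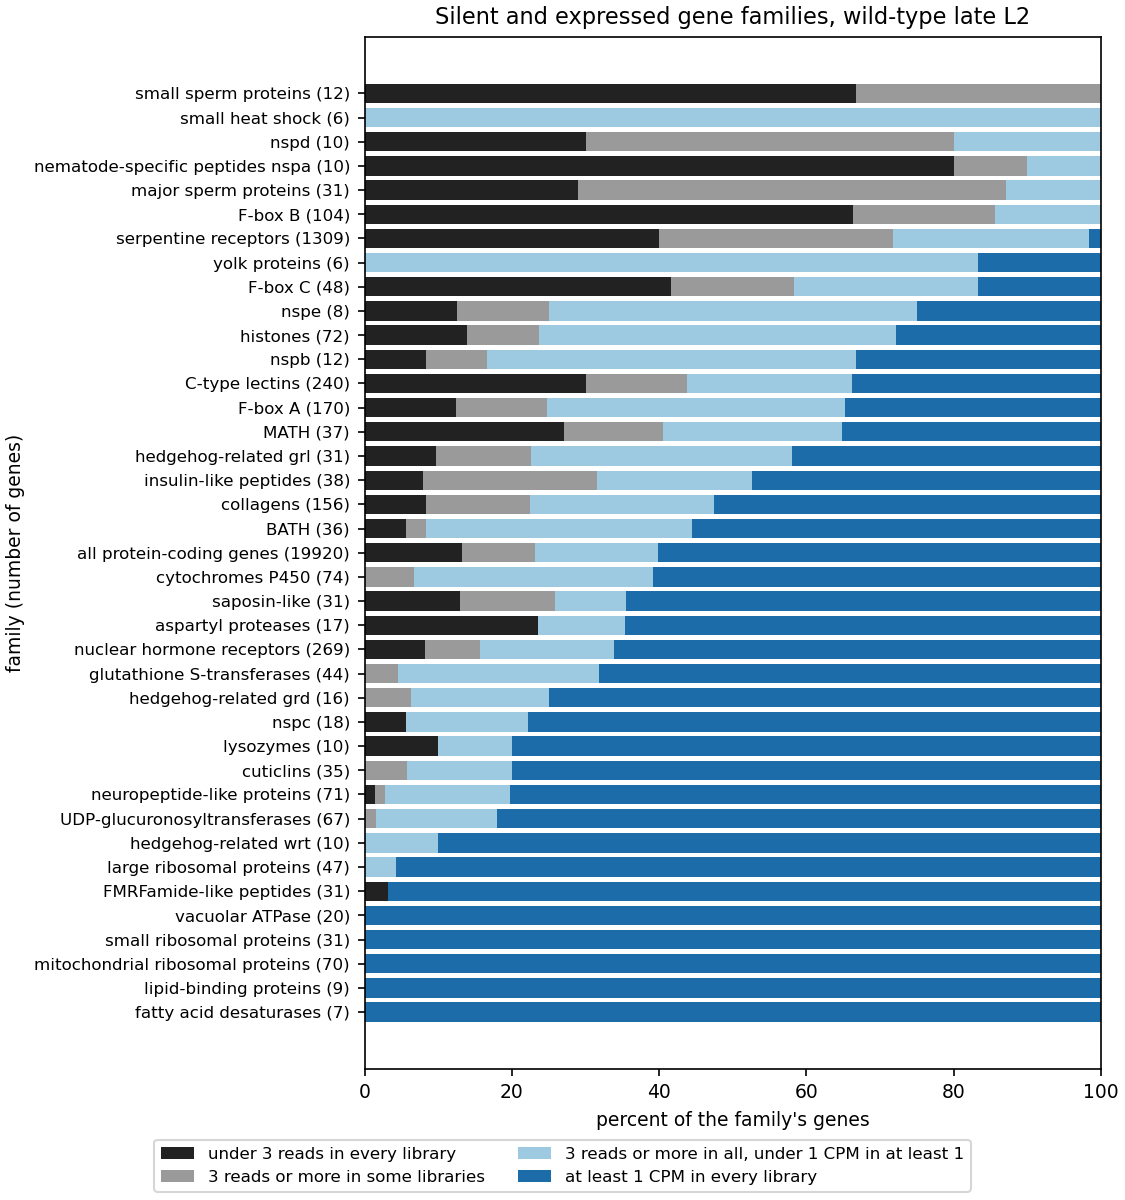
Composition of 38 gene families and of all protein-coding genes by the reads of their members in the 3 wild-type libraries, in percent of each family's genes, with the number of genes in brackets. Families are ordered by the share at 1 CPM or more in every library (dark blue). No F-box B or MSP gene reaches 1 CPM in every library, 39.95% of serpentine receptors have under 3 reads in every library (black), and all mitochondrial ribosomal protein and vacuolar ATPase genes are dark blue.

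F-box proteins, which choose substrates for ubiquitin ligases and have multiplied in nematodes, differed by class. Of the F-box B genes 69 (66.3%) had under 3 reads in every library and 0 were at 1 CPM in all of them, and the highest, *fbxb-101*, had 1.62, 0.589 and 0.941 CPM. Of 48 F-box C genes 20 (41.7%) had under 3 reads. By contrast, 21 of 170 F-box A genes (12.4%) had under 3 reads, near the 13.2% of all protein-coding genes. At 1 CPM were 59 (34.7%), below the 60.2% of all protein-coding genes, led by *fbxa-72* with 120, 85.8 and 93.7 CPM. The genes named for MATH domains had 10 of 37 (27.03%) under 3 reads, and the BATH genes, which join a BTB to a MATH domain, 2 of 36 (5.56%), with 20 at 1 CPM. *math-33*, a deubiquitinase gene, had 160, 160 and 194 CPM. C-type lectin genes, many of them secreted and used in immunity, had 72 of 240 under 3 reads and 81 at 1 CPM. A single gene, *clec-63*, held 35.3% of their CPM with 1328, 1167 and 913 CPM.

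Histones require a further remark on the libraries. Of 72 genes 20 were at 1 CPM, and the highest were *his-72* (156, 161 and 121 CPM), an H3.3 variant, *his-35*, an H2A gene with a mean of 131 CPM, and *his-37*, with a mean of 93.6 CPM. *his-24*, a linker histone, had a mean of 77.7 CPM. Most core histone mRNAs end in a stem-loop without a polyA tail and are not kept by polyA selection, so that the levels of these genes here do not give their abundance in the worm.

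Some families were expressed in full. All 70 mitochondrial ribosomal protein genes were at 1 CPM, with a sum of 4363, 4367 and 3926 CPM, and the highest, *mrps-30*, had 143, 145 and 150 CPM. All 20 vacuolar ATPase genes summed to 9414, 9219 and 9083 CPM, and all 7 fatty acid desaturase genes to 2274, 2276 and 2434 CPM. Nuclear hormone receptors, a family of 269 transcription factors, had 178 members (66.2%) at 1 CPM, near the 60.2% of all protein-coding genes, and 22 (8.18%) under 3 reads. Their highest member was *nhr-114* with 315, 317 and 308 CPM. Among detoxification enzymes, none of the 67 UDP-glucuronosyltransferase, 74 cytochrome P450 or 44 glutathione S-transferase genes was under 3 reads in every library. At 1 CPM were 55 (82.1%), 45 (60.8%) and 30 (68.2%) of them, again beside 60.2% of all protein-coding genes. Of 31 FMRFamide-like peptide genes 30 were at 1 CPM, and of 71 neuropeptide-like protein genes 57. Insulin-like peptides were lower, with 18 of 38 genes at 1 CPM and a sum of 135, 133 and 138 CPM.

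Collagens, the main protein of the cuticle, took 20551, 19522 and 10448 CPM over 156 *col* genes, of which 82 were at 1 CPM. The sum in replicate 3 was thus far below that of the others, which were close to each other. *col-17* was the highest with 2694, 4026 and 2031 CPM. *col-125* had 2283, 2120 and 740 CPM, *col-41* had 1521, 2231 and 926 CPM and *col-166* had 1443, 995 and 720 CPM. The order of replicates 1 and 2 differed between collagens, whereas 63 of the 82 genes were lowest in replicate 3 and 5 were highest there. The shares of all genes at 1 CPM were 41.8% and 38.6%. Collagens with other names are not in this family. Of those given above, *sqt-1* and *rol-6* were also lowest in replicate 3, whereas *sqt-3*, *dpy-7* and *dpy-10* were not. A 2-fold difference or more between the lowest and highest replicate was seen for 63 of these 82 genes, against 4.59% of all genes at 1 CPM. The cuticlins, insoluble proteins of the cuticle, summed to 1840, 2993 and 1157 CPM, and *cut-2* held 87.1% of this with 1597, 2729 and 889 CPM. The hedgehog-related *grl* genes summed to 1406, 1979 and 862 CPM, with *grl-16* at 654, 1000 and 289 CPM. Both sums were highest in replicate 2 and lowest in replicate 3. Of the 28 cuticlin genes at 1 CPM, however, 11 (39.3%) were lowest and 12 highest in replicate 3. Of the 13 *grl* genes at 1 CPM, 9 were lowest and 2 highest there.

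Over the 12242 genes at 1 CPM, the median SD between replicates was 0.15 in log2(CPM + 1) and the median coefficient of variation 11.8%. Counting error alone would give a median of 2.63% if the counted reads were independent of one another. The median coefficient of variation was 17.7% for genes of 1 to 3 CPM, 9.35% for those of 30 to 100, 9.17% for those of 300 to 1000 and 14.3% for the 171 genes above 1000 CPM. Without replicate 3 it was 12.4%, 4.20%, 3.37% and 1.77% in the same groups, so that the larger value above 1000 CPM rested on replicate 3. The median SD without replicate 3 was 0.081. Replicate 3 was the farthest from the others for 6528 genes (53.3%), replicate 2 for 2958 (24.2%) and replicate 1 for 2756 (22.5%). A 2-fold difference or more was seen for 562 genes, and for 110 when replicates 1 and 2 alone were compared. Among the 562, replicate 3 was lowest for 390 and highest for 88.

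The difference of replicate 3 moved with the length of the transcripts. For genes with under 600 bases of exon, its median difference from the mean of the others was −0.23 in log2(CPM + 1), and 69.2% of 1071 genes were lowest in replicate 3. For genes of 5000 to 10000 bases the median was 0.24, and 79.6% of 323 genes were highest there. Across 12234 genes with a length, which are not independent of one another and share their libraries, Spearman's rho between length and the difference was 0.43 for replicate 3, −0.40 for replicate 1 and −0.22 for replicate 2. These values are tied by construction, since each replicate is set against the mean of the others, and are not separate results. The values of some lists are given beside those of all genes of like length. Ribosomal protein genes, with a median of 530 bases, had a median difference of −0.43 in replicate 3, beyond the −0.23 of all genes under 600 bases. The *col* collagens, with a median of 1008 bases, had −0.96, against −0.05 for all genes of 1000 to 1500 bases and −0.16 for those of 600 to 1000. The 7 heterochronic genes, with a median of 3665 bases, had 0.60 against 0.20 for all genes of 3000 to 5000 bases, and the 12 moulting genes, with a median of 2554 bases, had 0.48 against 0.10 for genes of 2000 to 3000. The 11 neuronal genes (median 1925 bases) had 0.29 against 0.02, and the 9 germ line genes (median 2342 bases) −0.37 against 0.10. The part of length in these differences was not tested.

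**Figure D4:**
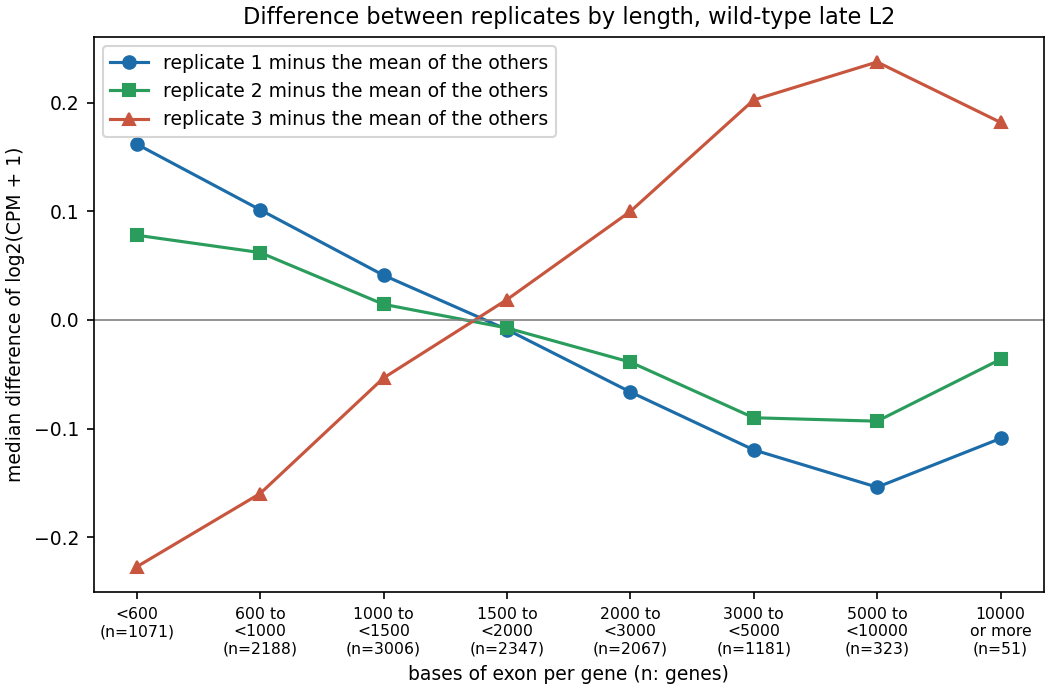
Median difference of each wild-type replicate from the mean of the other replicates, in log2(CPM + 1), for genes at 1 CPM or more in every library, grouped by bases of exon (number of genes below each group). Replicate 3 rises from −0.23 for genes under 600 bases to 0.24 for genes of 5000 to 10000 bases, and replicates 1 and 2 fall. The curves are tied by construction, since each replicate is set against the mean of the others.

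The scale of the libraries also bears on the direction. With the normalization of the deposited values, replicate 3 was lowest for 41.8% and highest for 38.6% of the genes at 1 CPM. With every library scaled to the same total, these shares were 28.0% and 53.5%, and the median difference of replicate 3 from the others moved from −0.01 to 0.10. Under this scale 62 of 82 *col* collagen genes and 78 of 79 ribosomal protein genes were lowest in replicate 3. In the same way 29 of the 30 genes highest per kb were lowest there, 6 of 7 heterochronic, 8 of 12 moulting and 11 of 11 neuronal genes were highest there, and 6 of 9 germ line genes were lowest and 2 highest.

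Heat shock genes were the most variable. Among the genes with a mean of at least 10 CPM, the largest SD of log2(CPM + 1), 2.56, belonged to *F44E5.5* (WBGene00009692; chromosome II, 11759662 to 11761861, plus strand), a gene of the Hsp70 family with 85.1, 36.9 and 1.88 CPM. *hsp-16.41* had 44.5, 14.4 and 0.571 CPM, *hsp-16.2* had 45.8, 15.0 and 0.941 CPM and *hsp-70*, the inducible Hsp70, had 30.2, 12.4 and 0.499 CPM. All of them had the same order, with replicate 1 highest, replicate 2 between and replicate 3 lowest. The 6 small heat shock genes of the *hsp-16* family together had 129, 43.8 and 2.696 CPM. *hsp-16* genes and *F44E5.5* have near-identical copies, so that the values of single genes are less certain than the sum. The constitutive *hsp-1*, by contrast, had the 4046, 4119 and 3418 CPM given above.

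Several other genes among the 20 had another order of replicates. The phosphoglycolate phosphatase homologs *pgph-1* (12.4, 22.6 and 1.90 CPM), *pgph-2* (53.0, 86.8 and 5.45 CPM) and *pgph-3* (57.0, 98.6 and 7.95 CPM) shared the order of replicate 2 highest and replicate 3 lowest. So did *acs-2*, an acyl-CoA synthetase gene of mitochondrial fatty acid oxidation (84.7, 124 and 17.6 CPM), the acyl-CoA dehydrogenase gene *acdh-2* (91.4, 119.3 and 17.7 CPM) and the glycerol-3-phosphate dehydrogenase gene *gpdh-1* (39.6, 54.9 and 9.22 CPM). Among the 20 most variable genes, 18 were lowest in replicate 3. Of these, 2 were collagens, *col-133* (72.6, 38.2 and 9.32 CPM) and *col-145* (88.5, 52.1 and 13.3 CPM). The other 2 of the 20 were highest in replicate 3, namely *T16G1.7* with 12.8, 7.61 and 50.1 CPM and *dod-24*, named for regulation downstream of DAF-16, with 11.95, 12.03 and 60.2 CPM. *Y43F8B.2* (237, 227 and 33.9 CPM), *R107.5* (222, 149 and 30.1 CPM), *F45D3.4* (166, 241 and 38.7 CPM), *F55H12.2*, *F22B7.9* and *C06B3.6* completed the set.

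**Figure D5:**
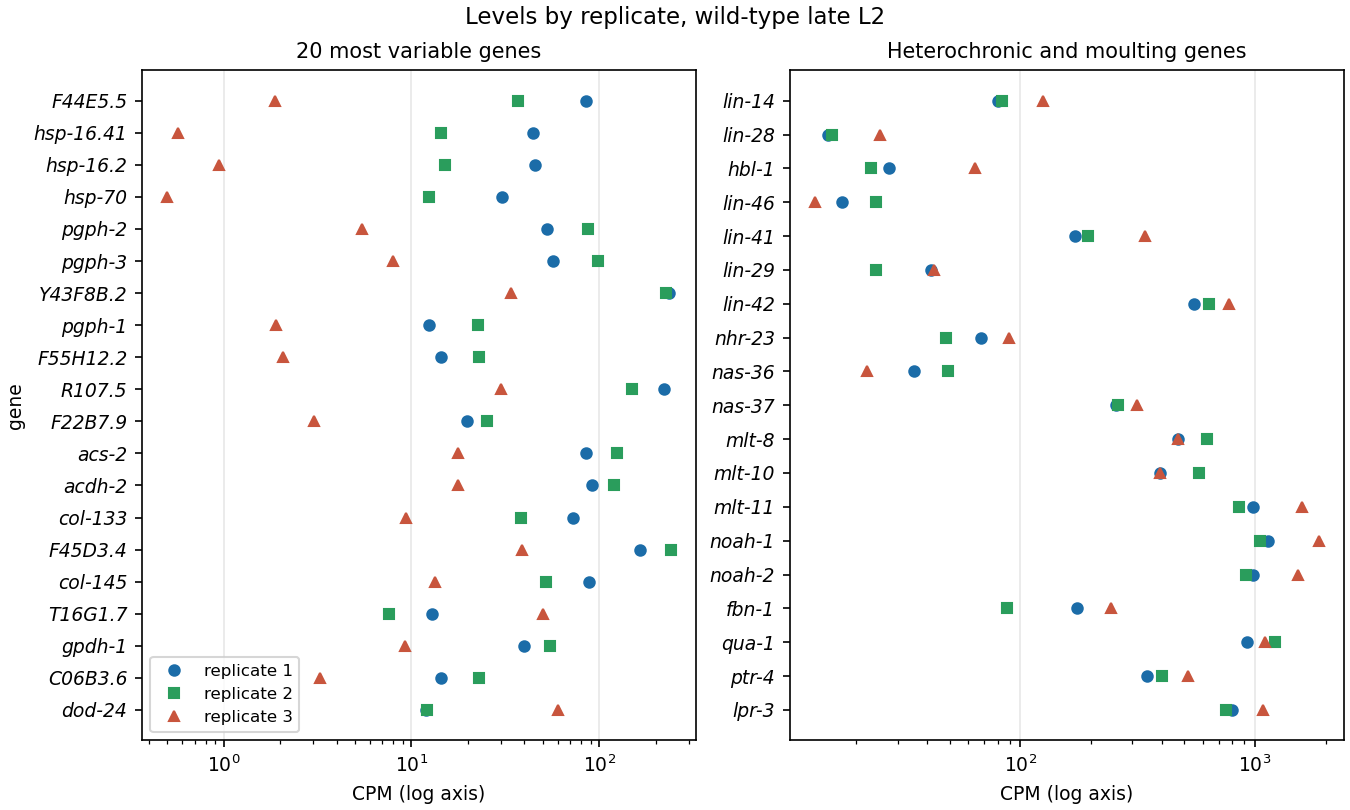
CPM on a log axis in wild-type replicates 1, 2 and 3 for the 20 genes with the largest SD of log2(CPM + 1) among those with a mean of at least 10 CPM (left) and for the matched heterochronic and moulting genes (right). Replicate 3 (triangles) is lowest for 18 of the 20 genes on the left, and on the right it is highest for *lin-14*, *hbl-1*, *lin-41* and *noah-1*.

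The steadiest genes were of moderate abundance. Their SD of log2(CPM + 1) lay between 0.00021 and 0.0063 over 20 genes. *Y6D1A.1* was measured at 17.5 CPM in each replicate and *trr-1*, a relative of the cofactor TRRAP, at 57.4, 57.5 and 57.5 CPM. Better covered members were *vha-16* (558, 554 and 559 CPM) and *vha-11* (453, 452 and 450 CPM), which encode subunits of the vacuolar ATPase, *puf-12* (399, 396 and 397 CPM), a gene of the Pumilio family, and *wdr-46* (110, 110 and 109 CPM). With 3 values per gene and 8216 genes of at least 10 CPM on average, some genes fall close together by position in the ranking alone, and a small spread here does not describe other cultures.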

How the data were processed

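RNA-seq of late L2 worms was analysed for the 3 wild-type libraries, for which the authors prepared polyA RNA, read both ends over 150 bases, mapped the reads to WS245 and counted reads per gene with STAR (version 2.5.1a) and normalized with edgeR, as the paper and the submitters' processing notes state. The authors deposited log2 values of CPM with a prior averaging 2 reads, so that the lowest log2 value, −5.15, is a gene without reads. Strand setting, treatment of reads with several matches and gene filter are not given in the sources used here, so that overlapping, antisense and near-identical genes are uncertain.

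The prior was removed, which gave CPM and whole reads (100% within 0.01 of a whole number). The normalization factors in the values were 0.927, 0.924 and 1.01. Of 46875 identifiers, 46821 were matched to the WBcel235 annotation (Ensembl release 115) for symbols, positions and exon lengths (all exons of a gene joined). Genes of the mitochondrial genome and *ssp-9* were not matched and are not analysed here, and *elt-5* is an older name of *egl-18*, under which it is given. Spread was computed on log2(CPM + 1) where all 3 libraries reached 1 CPM. No test was made.

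The members and lists were chosen with earlier results of these data known. Named were the 30 highest genes by CPM per kb, the 20 highest by CPM, list genes, the highest member of each of 38 families, and the 20 largest and 20 smallest SDs at a mean of 10 CPM or more. Other genes, such as further family members and *lep-5*, were chosen after their values were seen. Python 3.11.15, numpy 2.4.6, pandas 2.3.3 and matplotlib 3.10.9 were used, and the recovery of reads was tested on simulated data. Alternatives were other thresholds, pseudocounts, lengths and scales, and each replicate left out.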

Additional observations from a re-analysis of the deposited data

How the results depend on the processing

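The ranking of the most abundant genes depended on length: 15 of the 30 were shared when genes were ranked by CPM, and 29 to 30 when a replicate was left out. The median SD between replicates was 0.096 when every gene with a read was included, since low values are drawn together by the pseudocount, and 0.081 to 0.15 when a replicate was left out, the lowest without replicate 3. The number of genes at least 2-fold apart, examined with scales chosen after seeing the data, ran from 110 without replicate 3 to 409 without replicate 1, against 562, which partly follows from comparing fewer libraries. Detected genes, genes without a read and listed genes at 1 CPM stayed within 1.5 times their number under each alternative run. Families above the share of silent genes, also within this range, numbered 11 to 16. With equal totals, genes lowest in replicate 3 fell from 5123 to 3426 and genes highest there rose from 4725 to 6549. The more frequent direction of replicate 3 thus depended on the scale. Silent members of single families depended on the threshold, and for MSP genes also on replicate 2. Serpentine receptors under 3 reads numbered 523, against 272 without a read and 1266 under 1 CPM in every library. For MSP genes the same counts were 9, 2 and 31. Without replicate 2 the count of MSP genes under 3 reads was 20, and it was 9 without replicate 1 or without replicate 3. The list medians and coefficients of variation without replicate 3 were likewise chosen after seeing the data, and the median coefficient of variation above 1000 CPM moved from 14.3% to 1.77%. With 3 libraries, groups are too small to single out a deviating value by rule, and levels under 0.0449 CPM rest on fewer than 3 reads. No paired analysis was possible because no comparison between groups was made.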
